A study of Mus musculus with 8 samples.

Results

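The major histone gene cluster of mouse chromosome 13 was examined in 4 lists of Brdt islands, stretches of the genome in which anti-Brdt ChIP-seq reads clustered above a control library. Its islands were those that start within a region of 2.4 Mb, and they were set against those of 3 Mb of flank on either side. Region and flank together run from 18.7 to 27.1 Mb of chromosome 13 on mm9. The cluster held 348 of the 426082 islands of all lists, and the flank held 775. The lists came from round spermatids, the haploid cells that follow meiosis, and from spermatocytes, the meiotic cells, of adult mice of 2 genotypes. In one, labelled Brdt BD1del, the first bromodomain of Brdt is deleted; the other is wild type on the C57BL/6 strain. Wild-type cells were fractionated from pools of 10 mice, and for the BD1del mice the sources used here give neither strain nor pool size. By list, the cluster held 160 of 201828 islands in BD1del round spermatids, 95 of 112671 in BD1del spermatocytes, 59 of 74968 in wild-type round spermatids and 34 of 36615 in wild-type spermatocytes. Each group had 1 ChIP library and 1 input library, so there is no replicate error and no test between groups, and differences below are between these libraries.

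Brdt is a testis-specific protein of the BET family that binds acetylated histone tails through its bromodomains and is needed for the later removal of histones from sperm chromatin. The cluster encodes a large part of the replication-dependent histones, whose messages are made in S phase. It also encodes testis histones: the linker histone H1t, made in spermatocytes, and the variants TH2A and TH2B, which take the place of canonical H2A and H2B in germ cells. In RefSeq (GRCm38.p6), which differs from the build of the islands and was used for names and gene order only, 56 histone genes, 54 of them protein-coding, lie between the first and the last histone gene of the cluster. In that order 24 histone genes come first, then 75 vomeronasal receptor genes of the Vmn1r family, 39 of them pseudogenes, and then 32 histone genes. Vmn1r genes encode pheromone receptors of the vomeronasal organ, and no histone gene lies among them. Transfer RNA genes lie only among the histone genes, 32 in the first group and 45 in the second. The testis histone genes are all in the second group. H1f6, which encodes H1t, lies between H2bc4 and H4c3. H2bc1 (TH2B) and H2ac1 (TH2A) are neighbours and end the cluster before Scgn. Because no mm9 annotation was used, islands are given by position and not assigned to single genes.

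The RefSeq promoter windows of the testis histone genes, from 250 bases before the gene's start to 50 after it, are shown because these genes set the cluster apart in germ cells. Capitals mark the CCAAT box (CCAAT), the TATA box (TATAAA) and the octamer (ATTTGCAT), searched on both strands with no overlap between them in these windows. The CRE (TGACGTCA) was also searched and is not in them. H1f6 and H2ac1 are on the plus strand of GRCm38.p6, and H2bc1 is on the minus strand.
H1f6: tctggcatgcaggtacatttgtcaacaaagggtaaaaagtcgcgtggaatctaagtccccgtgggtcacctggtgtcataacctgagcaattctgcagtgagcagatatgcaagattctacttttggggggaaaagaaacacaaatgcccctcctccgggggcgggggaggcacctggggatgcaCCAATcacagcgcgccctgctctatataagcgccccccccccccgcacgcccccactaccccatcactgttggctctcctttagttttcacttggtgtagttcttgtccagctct
H2bc1: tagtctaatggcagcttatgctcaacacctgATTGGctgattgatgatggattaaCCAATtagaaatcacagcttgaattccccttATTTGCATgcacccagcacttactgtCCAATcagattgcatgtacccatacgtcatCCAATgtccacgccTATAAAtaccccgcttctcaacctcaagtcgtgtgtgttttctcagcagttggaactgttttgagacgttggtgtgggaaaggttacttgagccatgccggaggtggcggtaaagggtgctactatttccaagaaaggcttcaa
H2ac1: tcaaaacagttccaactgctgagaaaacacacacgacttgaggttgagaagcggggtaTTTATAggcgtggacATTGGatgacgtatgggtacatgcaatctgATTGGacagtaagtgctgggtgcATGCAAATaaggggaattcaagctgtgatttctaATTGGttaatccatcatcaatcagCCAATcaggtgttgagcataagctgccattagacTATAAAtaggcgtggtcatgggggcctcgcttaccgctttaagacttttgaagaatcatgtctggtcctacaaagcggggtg
H2bc1 and H2ac1 are divergent, and their windows share 220 bases, so both hold the same octamer. The CCAAT box was found in 37.4% of all 32851 RefSeq promoter windows and in 44 of 52 windows of the cluster's histone genes, which cover 51 genes. The same values were 13.6% and 31 windows for the TATA box, 1.74% and 11 windows for the octamer, and 1.79% and 4 windows for the CRE. These matches describe the letters only, and no island was placed on them.

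Islands covered between 3.78% and 5.63% of the histone gene cluster in the lists as deposited. The covered share was 3.78% in BD1del round spermatids, 5.63% in BD1del spermatocytes, 4.23% in wild-type round spermatids and 4.19% in wild-type spermatocytes. These shares depend on the threshold: with islands of an FDR of at most 1e-10 they were 2.73%, 3.19%, 1.36% and 1.03% in the same order of lists, and with islands of fold 2 or more 3.57%, 5.20%, 3.57% and 0.675%. In BD1del round spermatids the cluster had 3.78% and the flank 4.28%, a ratio of 0.883. BD1del spermatocytes had 5.63% in the cluster and 4.19% in the flank, a ratio of 1.34. The cluster of wild-type round spermatids had 4.23% and its flank 3.34%, a ratio of 1.26. In wild-type spermatocytes the cluster was covered to 4.19% and the flank to 1.44%, 2.92 times as much in the cluster. With the 10000 islands of lowest p in each list, the ratio of BD1del spermatocytes turned to 0.958. The flank was uneven in wild-type spermatocytes, so that the ratio was 2.11 against its centromere side and 4.73 against its telomere side. Set against all autosomes, the cluster's share was 0.669 times that of the autosomes in BD1del round spermatids, 0.910 times in BD1del spermatocytes, 0.875 times in wild-type round spermatids and 1.21 times in wild-type spermatocytes. Among 980 other autosomal windows of 2.4 Mb, 91.1% were covered at least as much as the cluster in BD1del round spermatids, 53.0% in BD1del spermatocytes, 42.6% in wild-type round spermatids and 18.8% in wild-type spermatocytes.

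**Figure D1:**
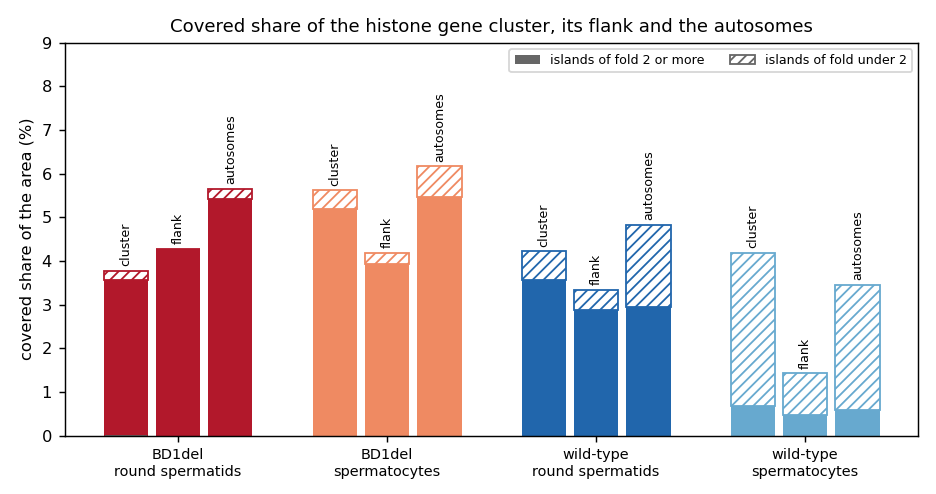
Covered share (percent of bases) of the cluster, its flank and all autosomes in each list, 1 library per list, divided into islands with a deposited fold of at least 2 (solid) and under 2 (hatched). In wild-type spermatocytes the cluster reached 4.19% against 1.44% of the flank, mostly by islands of fold under 2.

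The cluster's excess over its flank in wild-type spermatocytes came mainly from weak islands. The deposited fold, the authors' own value, is the number of ChIP reads over control reads scaled by library size. Of the 34 wild-type spermatocyte islands in the cluster, 22 had a fold under 2, or 64.7%, against 53.8% in the flank and 68.2% over all autosomes. These covered 3.52% of the cluster, 0.960% of the flank and 2.87% of the autosomes, and the cluster was at 3.66 times the flank. Islands of fold 2 or more covered 0.675% of the cluster and 0.477% of the flank, a ratio of 1.42. In the other lists weak islands were few: 3 of 160 in BD1del round spermatids, 5 of 95 in BD1del spermatocytes and 8 of 59 in wild-type round spermatids, which are 1.88%, 5.26% and 13.6%. Over all autosomes these lists had 1.26%, 5.82% and 22.9% weak islands, so the order of the lists in the cluster was that of the lists as a whole. The median fold in the cluster was 8.81 in BD1del round spermatids, 3.78 in BD1del spermatocytes, 2.90 in wild-type round spermatids and 1.67 in wild-type spermatocytes, against 7.37, 3.81, 3.14 and 1.96 in the flank in that order. Summed over the cluster's islands, ChIP reads were 6.26, 3.55, 2.87 and 1.69 times the scaled control reads in that order. In that order the control library exceeded the ChIP library in size by a factor of 5.45, 5.64, 3.79 and 1.79. Within each stage, median fold and the relative depth of the control were therefore higher in BD1del than in wild type. Between stages the median fold differed as well. In BD1del it was 8.81 in round spermatids and 3.78 in spermatocytes, at control factors of 5.45 and 5.64. In wild type it was 2.90 and 1.67, at factors of 3.79 and 1.79. The read sets named in the labels of the lists (F3 and F5 tags for BD1del, F3 tags for wild type) went with genotype. Genotype and read set therefore cannot be told apart. The part of depth in these values was not tested. Control reads per kb of island were close in the cluster and the flank, with ratios of 0.989, 0.961, 0.954 and 0.983 in the same order.

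Island form in the cluster differed between the lists much as it did elsewhere. The median length in the cluster was 400 bases in BD1del round spermatids, 1200 in BD1del spermatocytes, 1600 in wild-type round spermatids and 2700 in wild-type spermatocytes. In the flank it was 400, 1000, 1400 and 1800 bases in the same order. Islands of a single window of 200 bases were 71 of 160 (44.4%, exact 95% binomial interval 36.5 to 52.4%) in BD1del round spermatids, 3 of 95 (3.16%, 0.656 to 8.95%) in BD1del spermatocytes, 4 of 59 (6.78%, 1.88 to 16.5%) in wild-type round spermatids and 2 of 34 (5.88%, 0.720 to 19.7%) in wild-type spermatocytes. Over all autosomes the shares were 39.3%, 8.78%, 7.70% and 2.89% in the same order, and in the flank 42.2%, 9.14%, 6.87% and 5.13%. Each autosomal share lies within the interval of the cluster. Intervals cover counting error only, and neighbouring islands are not independent. Very high folds in the cluster stood on few control reads. The highest, 413.92, was a single window of BD1del round spermatids at 23268601 to 23268800 with 19 ChIP reads and no control read. In wild-type spermatocytes the highest, 31.3, was a single window at 21902001 to 21902200 with 35 ChIP and 2 control reads. Both windows were singled out after their values were seen, and the islands named below for their fold have at least 10 control reads.

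With islands of any fold, the most covered part of the cluster differed by list. The cluster was divided into 3 equal stretches of 800 kb, called the centromere side, the middle and the telomere side. In BD1del spermatocytes the telomere-side stretch was the most covered, at 7.33%, with 5.18% on the centromere side and 4.38% in the middle. Wild-type round spermatids had the same leading stretch, at 5.63%, with 2.38% on the centromere side and 4.68% in the middle. BD1del round spermatids were more even, at 4.15%, 3.73% and 3.48% in the same order of stretches. Wild-type spermatocytes had 6.53% in the middle, 3.88% on the centromere side and 2.18% on the telomere side. With islands of fold 2 or more alone, the telomere side was the most covered stretch in every list. It had 4.15% in BD1del round spermatids, 6.875% in BD1del spermatocytes, 5.025% in wild-type round spermatids and 1.1% in wild-type spermatocytes. In wild-type spermatocytes such islands covered 0.9% of the centromere side and 0.025% of the middle. Their middle stretch was almost entirely weak islands: 14 of its 15 islands had a fold under 2, and none had an FDR of 1e-10 or less. Their 8 islands on the telomere side had a median fold of 4.18, and 6 had a fold of at least 2.

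**Figure D2:**
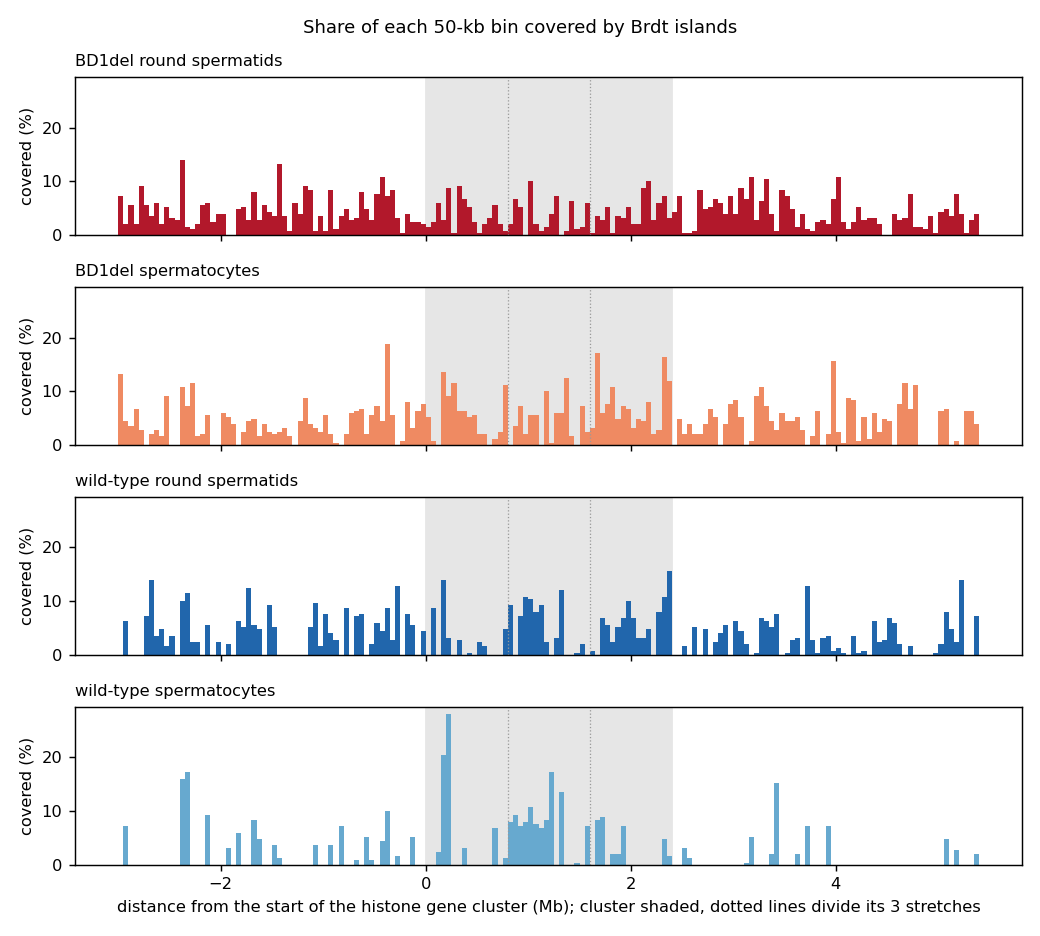
Share of each 50-kb bin covered by islands (percent) in the cluster (shaded) and 3 Mb on either side, by distance from the cluster's start, 1 library per list. In wild-type spermatocytes 9 neighbouring bins of the middle stretch are covered to 6.8 to 17.2% each, beside many empty bins in the flank.

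In wild-type spermatocytes the middle of the cluster had a row of neighbouring bins that each held weak islands, with gaps between the islands. Each of the first 9 bins of 50 kb in the middle stretch, up to 22.95 Mb, was covered to between 6.8% and 17.2%. They were covered by 11 islands, 4200 bases long at the median, with folds between 1.33 and 1.61. They held 1279 ChIP and 1589 control reads, or 37.7 control reads per kb, close to the 40.0 of all wild-type spermatocyte islands in the cluster. In the flank of the same list no more than 2 neighbouring bins were covered to at least 5%, and 1.75% of all autosomal bins lay in rows of 9 or more. The limit of 5% was chosen after the profile was seen, so the row is a description. In the same 9 bins, BD1del round spermatids had 27 islands with a median fold of 9.90 and a median length of 400 bases, BD1del spermatocytes had 17 islands of median fold 5.22, and in wild-type round spermatids 13 islands reached a median of 2.24. The mean covered share of these bins was 3.6% in BD1del round spermatids, 3.82% in BD1del spermatocytes, 6.36% in wild-type round spermatids and 9.24% in wild-type spermatocytes. The bins were chosen for their cover in wild-type spermatocytes. A high share of that list was thus built into the choice, and its place above the other lists is no finding. Nowhere in the cluster did a BD1del list hold an island with a fold below 1.56, so most of the folds in the wild-type spermatocyte row were lower than any in those lists.

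**Figure D3:**
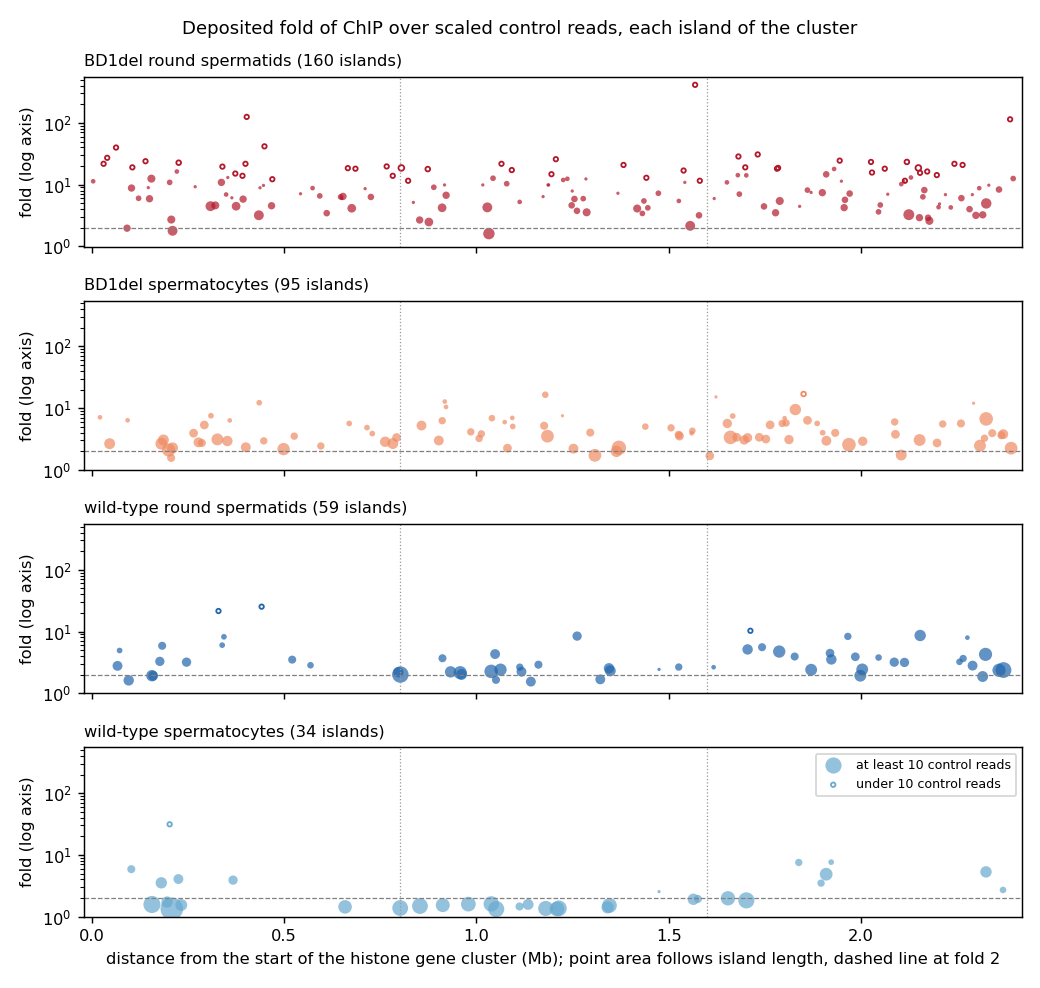
Deposited fold (log axis) of every island of the cluster by distance from the cluster's start, with point area following island length and open points for islands with under 10 control reads. Wild-type spermatocyte islands of the middle stretch lie under the dashed line at fold 2, apart from 1 of 15.

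The longest island of the cluster lay where control reads were dense. It was at 21903001 to 21912400 on the centromere side in wild-type spermatocytes, spanned 9.4 kb and held 722 ChIP and 963 control reads, for a fold of 1.34. It alone had 18.9% of the ChIP reads and 23.9% of the control reads in that list's islands of the cluster, at 102 control reads per kb. No wild-type round spermatid island met it, while islands covered 31.9% of it in BD1del round spermatids and 36.2% in BD1del spermatocytes. Of the BD1del spermatocyte islands inside it, that at 21908601 to 21910800 had 85 ChIP and 211 control reads and a fold of 2.27, at 95.9 control reads per kb. The other, at 21905401 to 21906600, had 36 ChIP and 130 control reads and a fold of 1.56, at 108 control reads per kb. Without the 9.4-kb island, a comparison added after its length was seen, the cluster of wild-type spermatocytes was covered to 3.8%, which was 2.65 times its flank. Another long wild-type spermatocyte island, at 21853401 to 21858800, had 221 ChIP and 251 control reads and a fold of 1.58. It was covered to 22.2% in BD1del round spermatids and to 59.3% in wild-type round spermatids.

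All 4 lists met at 2 places in the cluster, 1.2 kb in all. Islands that met all 3 other lists were 1.25% of the cluster's islands in BD1del round spermatids and 2.11% in BD1del spermatocytes. In wild type they were 3.39% in round spermatids and 5.88% in spermatocytes. Over all autosomes the shares were 2.33%, 4.21%, 6.78% and 15.8% in the same order, and in the flank 0.490%, 1.02%, 2.29% and 7.69%. The stronger place lay close to the cluster's telomere-side end, with shared bases from 24024801 to 24025600. The BD1del round spermatid island spanned 24024801 to 24026800 and held 52 ChIP and 57 control reads, for a fold of 4.97. The BD1del spermatocyte island spanned 24024001 to 24027400 and held 115 ChIP and 97 control reads, for a fold of 6.68; no island of that list in the cluster had more ChIP reads. The wild-type round spermatid island spanned 24022401 to 24025600, with 81 ChIP and 72 control reads and a fold of 4.26. The wild-type spermatocyte island spanned 24024001 to 24026400, with 101 ChIP and 34 control reads and a fold of 5.31. By deposited p it was number 51 of 160, 2 of 95, 4 of 59 and 2 of 34 of the cluster's islands in that order. Among all autosomal islands of each list, 26.5%, 0.402%, 3.36% and 2.93% had a lower p. By fold the place ranked lower, at number 121, 16, 17 and 5 of the cluster's islands in that order. Of the autosomal islands, 68.1%, 20.9%, 25.1% and 5.48% had a higher fold. Control reads were sparse there, between 14.2 per kb in wild-type spermatocytes and 28.5 per kb in both BD1del lists, against 30.9 to 49.2 over all islands of the cluster in the 4 lists.

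The other place was in the middle stretch, where the lists shared 22611001 to 22611400. The folds were 4.22 in BD1del round spermatids, from 38 ChIP and 49 control reads, and 6.25 in BD1del spermatocytes, from 41 and 37. They were 3.69 in wild-type round spermatids, from 38 and 39 reads, and 1.54 in wild-type spermatocytes, from 110 and 128. The wild-type spermatocyte island was the longest, at 3600 bases, and lay in the row of bins with weak islands. Of the 12000 windows of 200 bases in the cluster, 84.7% were in no island of any list, 13.3% were in islands of 1 list, 1.7% of 2, 0.317% of 3 and 0.05% of all 4. The longest stretch with no island of any list was 35.4 kb, from 22311001 to 22346400.

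**Figure D4:**
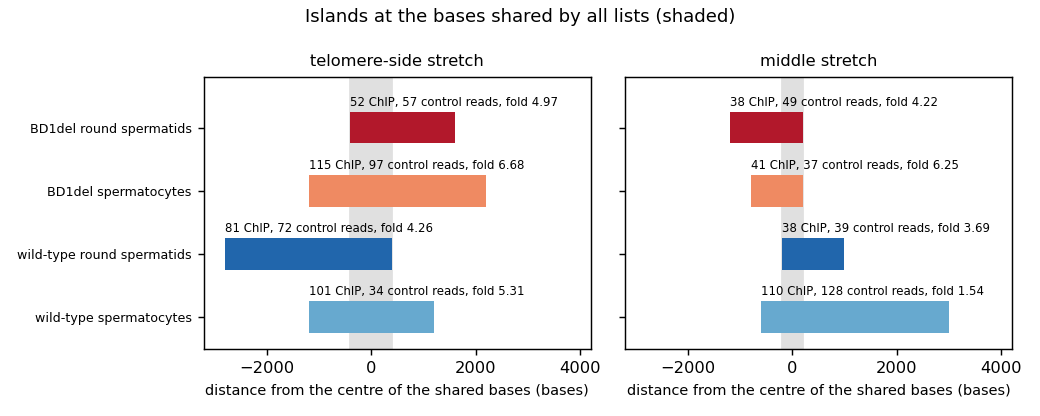
Extent of the islands of the 4 lists at the places where all of them share bases (shaded), by distance in bases from the centre of the shared bases, with their ChIP reads, control reads and deposited fold. The folds are 4.26 to 6.68 at the telomere-side place and 1.54 to 6.25 at the middle one.

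The genotypes were compared within each stage to see where deletion of the first bromodomain left islands in the cluster. In round spermatids, 14 of 160 BD1del islands (8.75%, 4.87 to 14.2%) overlapped a wild-type one by 1 base or more, and over all autosomes 9.79% did. In the other direction 14 of 59 wild-type islands (23.7%, 13.6 to 36.6%) met a BD1del island, and over all autosomes 26.4% did. In the flank the same shares were 6.62% and 19.1%. Among islands with at least 10 control reads, the BD1del round spermatid islands of highest fold that met no wild-type round spermatid island were at 23630001 to 23630400, with a fold of 18.0 from 33 ChIP and 10 control reads, and at 21920601 to 21921000, with a fold of 16.3 from 30 and 10. Neither met an island of any other list. On the wild-type side they were at 23665401 to 23666400, with a fold of 8.33 from 33 ChIP and 15 control reads, and at 22043001 to 22043600, with a fold of 8.21 from 26 and 12, again with no island of any other list.

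In 50-kb bins, the covered share was lower in BD1del than in wild-type round spermatids by at least 10 percentage points in 4 of 48 bins, where 4.22% of all 48278 autosomal bins were. It was higher by that much in 0 bins, where 3.74% of autosomal bins were. At a difference of 5 points BD1del was the higher in 10 bins and the lower in 8, a limit at which autosomal bins were not counted. The widest gap was in the last bin, from 24.05 Mb on, with 3.2% in BD1del and 15.6% in wild-type round spermatids, followed by the bin from 23 to 23.05 Mb with 0% in BD1del and 12% in wild type. Across the 48 bins the covered shares of BD1del and wild-type round spermatids had a Spearman correlation of -0.03, which is a description over bins of 1 library each.

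In spermatocytes, 10 of 95 BD1del islands (10.5%, 5.16 to 18.5%) overlapped one of wild type, against 8.96% over all autosomes and 4.06% in the flank. Of the wild-type islands 9 of 34 (26.5%, 12.9 to 44.4%) met a BD1del island, against 30.4% over all autosomes and 20.5% in the flank. Among islands with at least 10 control reads, the BD1del spermatocyte islands of highest fold that met no wild-type spermatocyte island were at 23322801 to 23323000, with a fold of 15.2 from 35 ChIP and 13 control reads, and at 22617401 to 22617800, with 12.8 from 43 and 19. On the wild-type side they were at 23622201 to 23622800, with a fold of 7.64 from 47 ChIP and 11 control reads, and at 23537801 to 23538800, with 7.54 from 59 and 14. The first of these was wholly covered by a wild-type round spermatid island, and the second met no island of any list. BD1del spermatocytes also had an island of 89 ChIP and 53 control reads at 23528201 to 23530600, with a fold of 9.47. It shared no base with another list, but a wild-type round spermatid island at 23527001 to 23528200 ended directly before it. That one had a fold of 3.93 from 27 ChIP and 26 control reads. By contrast, the island of highest fold of BD1del spermatocytes, 16.4 at 22878601 to 22879400 from 35 ChIP and 12 control reads, lay inside a weak wild-type spermatocyte island.

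BD1del spermatocytes were the more covered by at least 10 points in 5 of 48 bins, where 11.9% of autosomal bins were, and the less covered in 2 bins, where 4.2% were. The 2 bins were those from 21.9 to 21.95 Mb, with 9.2% in BD1del and 28.0% in wild-type spermatocytes, and from 22.9 to 22.95 Mb, with 0.4% in BD1del and 17.2% in wild type. The first holds the 9.4-kb island with dense control reads, and the second is the last of the row of bins with weak islands. The largest gap the other way was from 23.05 to 23.1 Mb, with 12.4% in BD1del and 0% in wild-type spermatocytes. The rank correlation of the bins was 0.13.

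The stages were compared within each genotype to see which islands of the cluster were found both during and after meiosis. In BD1del cells, 17 of 160 round spermatid islands (10.6%, 6.31 to 16.5%) met a spermatocyte island, and 12.3% did over all autosomes. Of the spermatocyte islands, 16 of 95 (16.8%, 9.94 to 25.9%) met a round spermatid island, and 21.6% did over all autosomes. Flank shares were 7.84% and 15.7%. An island of BD1del round spermatids at 23609201 to 23610000, with a fold of 14.7 from 54 ChIP and 20 control reads, was wholly covered by an island of BD1del spermatocytes and by one of wild-type spermatocytes, but met none of wild-type round spermatids. The BD1del round spermatid island with most ChIP reads, 72 against 120 control reads at 23823401 to 23825600, met no other list. BD1del round spermatids were the less covered by at least 10 points in 6 of 48 bins, against 4.96% of autosomal bins and 2 of 120 in the flank, and the more covered in 0 bins, against 2.23%. The widest gap was from 23.35 to 23.4 Mb, with 3.6% in BD1del round spermatids and 17.2% in BD1del spermatocytes. The rank correlation of the bins was 0.07.

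In wild type the stages shared fewer of the spermatocyte islands in the cluster than elsewhere. Of the wild-type round spermatid islands, 15 of 59 (25.4%, 15.0 to 38.4%) met a spermatocyte island, close to the 26.6% of all autosomes. Of the wild-type spermatocyte islands, 12 of 34 (35.3%, 19.7 to 53.5%) met a round spermatid island, against 58.1% over all autosomes and 23 of 39 (59.0%, 42.1 to 74.4%) in the flank. The interval of the cluster, which covers counting error alone, does not reach the autosomal share but overlaps that of the flank. By stretch, a division of this overlap made after its share was seen, 2 of 11 wild-type spermatocyte islands were met on the centromere side, 6 of 15 in the middle and 4 of 8 on the telomere side. Of the weak ones 8 of 22 were met, and of those with a fold of at least 2, 4 of 12. At the start of the middle stretch the wild-type round spermatid island from 22499601 to 22504600, with 106 ChIP and 200 control reads and a fold of 2.01, covered 95.7% of the wild-type spermatocyte island from 22499401 to 22504000, with 162 ChIP and 210 control reads and a fold of 1.38. In the BD1del lists this stretch was nearly empty, with 4% of the round spermatid island covered in BD1del round spermatids and none in BD1del spermatocytes.

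**Figure D5:**
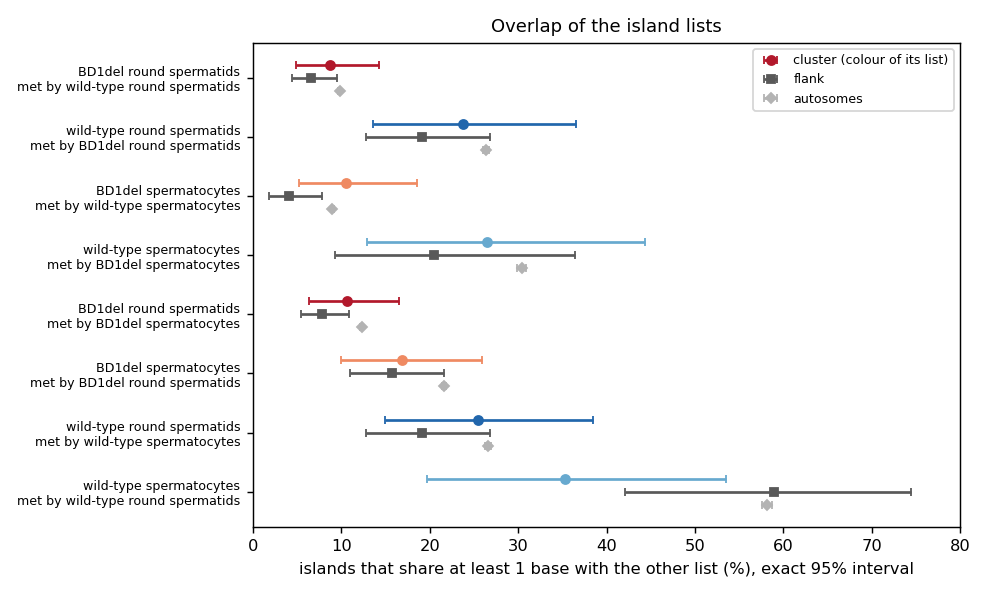
Share of islands (percent) that share at least 1 base with the other list of a pair, in the cluster (coloured), the flank (dark grey) and all autosomes (light grey), with exact 95% binomial intervals. The cluster's intervals contain the autosomal share in 7 of the 8 cases, the exception being wild-type spermatocyte islands met by wild-type round spermatid islands, at 35.3% against 58.1%.

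Strong wild-type round spermatid islands without a wild-type spermatocyte partner were at 23852801 to 23855200, with a fold of 8.62 from 66 ChIP and 29 control reads, and at 22961001 to 22962600, with a fold of 8.43 from 69 and 31. Islands of BD1del spermatocytes covered 41.7% of the first, and islands of BD1del round spermatids covered 8.33% of the first and 50% of the second. Wild-type round spermatids were the more covered by at least 10 points in 2 of 48 bins, against 4.22% of autosomal bins, and the less covered in 2, against 2.78%. The last bin, from 24.05 Mb on, had 15.6% in wild-type round spermatids and 1.6% in wild-type spermatocytes, while that from 21.9 to 21.95 Mb had 3.2% in wild-type round spermatids and 28.0% in wild-type spermatocytes. The rank correlation of the bins was 0.28 in the cluster and 0.34 in the flank, the highest of the 4 comparisons in both.

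Bins covered to at least 10% numbered 2 of 48 in BD1del round spermatids, 9 in BD1del spermatocytes, 7 in wild-type round spermatids and 5 in wild-type spermatocytes, and 12.8%, 19.5%, 13.3% and 10.3% of autosomal bins in that order. In percent of the 48 bins these counts are 4.17%, 18.8%, 14.6% and 10.4%, against 5%, 6.67%, 5.83% and 3.33% of the 120 bins of the flank. The share was thus below the autosomes in BD1del round spermatids, close to them in the other lists, and above the flank in those 3. The bin from 21.85 to 21.9 Mb was among the 3 most covered of 3 lists, at 13.6% in BD1del spermatocytes, 14% in wild-type round spermatids and 20.4% in wild-type spermatocytes, and had 2.8% in BD1del round spermatids. The bin from 24 to 24.05 Mb, which holds the strongest common island, had 7.2% in BD1del round spermatids, 16.4% in BD1del spermatocytes, 10.8% in wild-type round spermatids and 4.8% in wild-type spermatocytes. An island of every list was present in 13 of the 48 bins, and no bin was without one. Single lists had an island in 95.8%, 89.6%, 68.8% and 52.1% of the 48 bins in the order above. In the flank these shares were 96.7%, 82.5%, 67.5% and 26.7%. The joint count was not made in the flank or over the autosomes, so the 13 bins are a description and no sign of common cover. Of the 36 islands named by rule in the cluster, 13 met no island of another list, and 8 met all other lists, which are those at the 2 common places. The rules name islands for lacking a partner or for lying at a common place, so these counts describe the naming only. Among all cluster islands, 80% met no other list in BD1del round spermatids and 74.7% in BD1del spermatocytes (79.6% and 70.3% over autosomes). In wild type the shares were 55.9% in round spermatids and 38.2% in spermatocytes (51.9% and 25.2% over autosomes).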

How the data were processed

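Brdt ChIP-seq of 8 samples, 4 anti-Brdt and 4 input libraries, had 1 library per group of stage, genotype and antibody. Per the submitters' processing notes, SICER made the deposited island lists on mm9, with windows of 200 bases and gaps of 600, per the labels of the lists. Not given in the sources used here were the aligner, the SICER version, the handling of duplicates and the input used for each list. The ChIP and control counts per island are raw whole counts deposited by the authors. The deposited p-value and FDR compare the ChIP count with the scaled control count, and the deposited fold is their ratio; the largest FDR was 0.00997 to 0.01000. Counts and fold together give the relative size of both libraries of a list, but not their totals. Islands in the cluster held 4442, 4179, 2371 and 3811 ChIP reads (BD1del round spermatids, BD1del spermatocytes, wild-type round spermatids, wild-type spermatocytes).

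Members were islands whose start lies in the region. Coordinates are 1-based. Covered shares, 50-kb bins, overlaps (at least 1 base) and exact (Clopper-Pearson) 95% intervals were computed with Python 3.11.15, NumPy 2.4.6, pandas 2.3.3 and SciPy 1.17.1. Overlap and bin counting were tested on simulated lists and returned the planted answers. Islands were named by rule: in each list the 3 highest folds among islands of 10 or more control reads, the 3 with most ChIP reads and the 3 longest, every place where all lists meet, and per comparison the 2 of highest fold without a partner; bins were named alike. The cluster, its division and these rules were chosen with earlier results of these data known. Alternatives were an FDR limit of 1e-10, folds from 2 upward, the 10000 islands of lowest p per list, at least 10 control reads, 1 side of the flank, other overlap rules, a 5-point difference and 100-kb bins. Sequences of the islands were not used here, since no mm9 genome was at hand.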

Additional observations from a re-analysis of the deposited data

Results flagged for a closer look

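With all deposited islands, the covered share of the cluster differed between the stages in BD1del and was nearly alike in wild type. The covered share of the cluster in round spermatids minus that in spermatocytes was -1.84 percentage points in BD1del and 0.0333 points in wild type. BD1del minus wild type was -0.442 points in round spermatids and 1.43 points in spermatocytes. With 1 library per group the difference between these differences was not tested. Over all autosomes the covered share in BD1del was 5.66% in round spermatids and 6.18% in spermatocytes. In wild type it was 4.83% and 3.46%. Flank shares were 4.28%, 4.19%, 3.34% and 1.44% in that order. In both areas BD1del was the more covered at each stage, and in wild type round spermatids were more covered than spermatocytes. The directions in the cluster depend on the islands used. With the 10000 islands of lowest p the wild-type stage difference was -0.442 points, the same direction as the -0.267 points in BD1del. BD1del minus wild type in round spermatids was 1.38 points at an FDR of at most 1e-10 and 0 points at a fold of at least 2, and in spermatocytes it was -0.642 points with the 10000 islands of lowest p. The BD1del stage difference was negative under every filter tried, between -2.27 and -0.267 points. The filters keep parts of the same lists, so their results are not independent. The -0.267 points came with the 10000 islands of lowest p, which left 6 BD1del round spermatid and 7 BD1del spermatocyte islands in the cluster.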

How the results depend on the processing

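Requiring at least 10 control reads or merging islands within 1000 bases moved no ratio, overlap or bin count they were applied to by more than its interval or 1.5 times. Of 140 alternatives 71 stayed within it, 68 moved and 1 turned a ratio to the other side of 1, that of BD1del spermatocytes with the 10000 islands of lowest p. With those islands the covered share of the cluster was 0.117% in BD1del round spermatids, 0.383% in BD1del spermatocytes, 0.583% in wild-type round spermatids and 1.03% in wild-type spermatocytes. It was 3.33% in BD1del round spermatids with at least 10 control reads. Whether depth set the list lengths was not tested. Some alternatives could not move a result in both directions. A 5-point limit cannot lower a bin count, and a filter cannot raise a covered share. Counts in 100-kb bins are over 24 bins, against 48 of 50 kb. The tally of moved results is therefore a description and no measure of robustness. With the 10000 islands of lowest p the cluster over flank ratio was 0.729 in BD1del round spermatids, 0.958 in BD1del spermatocytes, 1.52 in wild-type round spermatids and 1.89 in wild-type spermatocytes, where it was also 1.89 at an FDR of at most 1e-10 and 1.42 at a fold of at least 2. With the centromere-side flank alone it was 1.08 in wild-type round spermatids and 2.11 in wild-type spermatocytes, and with the telomere side 1.53 and 4.73.

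The overlaps that follow were computed in the cluster only, so they have no flank or autosomal share beside them. At an FDR of at most 1e-10, the share of BD1del islands met by wild type was 3.03% in round spermatids and 3.23% in spermatocytes. There 5.30% of BD1del round spermatid islands met BD1del spermatocytes, 9.09% of wild-type round spermatid islands met wild-type spermatocytes, and 18.2% of wild-type spermatocyte islands met wild-type round spermatids. At a fold of at least 2, 4.44% of BD1del spermatocyte islands met wild type and 7.84% of wild-type round spermatid islands met wild-type spermatocytes. With the 10000 of lowest p, which left 6 to 11 islands in the cluster, no round spermatid islands met across genotypes and no BD1del islands across stages (0%). There 11.1% of wild-type round spermatid islands met wild-type spermatocytes, and 9.09% of wild-type spermatocyte islands met BD1del spermatocytes and 9.09% wild-type round spermatids. Counting islands covered to at least 50%, wild-type round spermatid islands met BD1del in 3.39% and wild-type spermatocytes in 13.6%, wild-type spermatocyte islands met BD1del in 11.8%, and BD1del spermatocyte islands met BD1del round spermatids in 5.26%.

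Bin counts at 5 points were 10 higher and 8 lower for BD1del against wild-type round spermatids, 16 and 10 for BD1del against wild-type spermatocytes, 1 and 11 for BD1del round spermatids against BD1del spermatocytes, and 7 and 8 for wild-type round spermatids against wild-type spermatocytes. Autosomal bins were not counted for the alternatives of this paragraph, so its counts have no background share. Moved counts in the same order of comparisons were 0 lower, 1 higher and 0 lower, 0 lower, and 1 higher and 1 lower in 100-kb bins. At the FDR limit they were 0 lower, 2 higher and 1 lower, 2 lower, and 0 higher and 1 lower. At a fold of at least 2 they were 2 lower, 0 lower, none moved, and 0 lower. With the 10000 of lowest p they were 0 lower, 0 higher and 1 lower, 0 lower, and 0 higher and 1 lower. The causes were not tested. No paired analysis was possible because each group had 1 library.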
